A study of Mus musculus with 12 samples.

Results

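Echdc2 and 9 genes of branched-chain amino acid (BCAA) breakdown or of the same enzyme fold were examined in corneal endothelial cells (CEC) of mice lacking Slc4a11. The 10 genes, all present among the 15838 genes tabled, were Echdc2, Echdc1, Echdc3, Bcat2, Bckdha, Bckdhb, Dbt, Ivd, Hibch and Aldh6a1. They were chosen by name. Echdc2 was selected on its measured KO effect in both sexes, and the others because they belong to the pathway or fold that it resembles. RNA came from Descemet membranes with attached CEC of 10-week-old C57BL/6 mice, in 12 libraries with 3 in each of 4 groups: male Slc4a11+/+ (WT), female Slc4a11+/+, male Slc4a11-/- (KO) and female Slc4a11-/-. WT and KO mice were littermates from heterozygous intercrosses, and the KO allele carries a germline deletion of several exons, so the deletion is present in every tissue and not in CEC alone. The labels speak of pooled membranes and the methods of membranes paired per mouse, so whether a library is 1 mouse could not be settled, and the p-values measure the spread between libraries.

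BCAA are leucine, isoleucine and valine. Their breakdown in mitochondria starts with transamination by BCAT enzymes, continues with oxidative decarboxylation by the branched-chain α-keto acid dehydrogenase (BCKDH) complex, and ends, through separate arms for each amino acid, in acetyl-CoA, acetoacetate and propionyl-CoA. Echdc2 encodes enoyl-CoA hydratase domain-containing protein 2, a mitochondrial protein of the crotonase fold, the fold shared by the enoyl-CoA hydratases of fatty acid β-oxidation and by the hydratases and hydrolases of the BCAA arms. Its substrate is less well established than those of the BCAA enzymes.

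The tables hold fitted effects and no values per library, so levels are group estimates and the depth of the libraries is unknown. A level is given in CPM, the read count of a gene scaled to the size of its library, or as log2 CPM, and a KO effect is log2(KO/WT), called log2FC, with its standard error (SE). A gene was called at an adjusted p under 0.05 over all 15838 genes. Slc4a11 (chromosome 2, GRCm38 positions 130684113 to 130697519, minus strand), the deleted gene, was checked first. Its log2FC was -1.83 (SE 0.22, adjusted p = 0.000522) in males and -2.89 (SE 0.22, adjusted p = 2.77e-05) in females, in the direction the labels give. Its estimated level was 3794 CPM in WT and 740 CPM in KO. The tables give 1 value for the whole gene, so where in the gene the reads counted in KO lie was not tested. All 10 endothelial markers were tabled, with levels from 534 to 6638 CPM in WT.

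Echdc2 (ENSMUSG00000028601) lies on chromosome 4 of GRCm38, positions 108165437 to 108179308 on the plus strand, and has 13 annotated transcripts that cover 2287 exonic bases. No other annotated gene overlaps it. The genes on either side, Scp2 and Zyg11a, are both on the minus strand. Scp2 reaches to 20439 bases before Echdc2, and Zyg11a lies 2430 bases past its end. The upstream sequence is shown as the stretch before the annotated start of Echdc2. Where in the gene the reads counted in KO lie, and from which of the 13 transcripts they come, was not tested. RefSeq's table for GRCm38.p6 held promoters for 9 of the 10 genes, and the 250 bases before the start of Echdc2 (chr4:108165187-108165436, plus strand, 54.0% G or C) read as follows, with the only match to the E-box hexamer in capitals.
Echdc2 upstream: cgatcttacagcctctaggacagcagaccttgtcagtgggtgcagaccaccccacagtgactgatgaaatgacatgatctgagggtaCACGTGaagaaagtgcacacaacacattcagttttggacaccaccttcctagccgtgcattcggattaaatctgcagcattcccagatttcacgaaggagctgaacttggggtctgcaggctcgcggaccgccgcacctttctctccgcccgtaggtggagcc
The hexamer CACGTG, which reads the same on both strands, begins at base 88 of this window and 157 bases separate its end from the start site. It occurred in 1978 of the 32851 upstream windows of that length in the table, or 6.02%, and among the members in that of Echdc2. The cyclic AMP response element TGACGTCA was in no member's window and in 1.55% of all windows. Both motifs were picked after the sequence had been read, and a match is a description of the letters.

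Echdc2 was close to absent from WT and measurable in KO of both sexes. Its level was estimated at -5.70 log2 CPM in WT (0.0192 CPM) and 3.85 log2 CPM in KO (14.4 CPM), as means over both sexes. No other of the 15838 genes had so low an estimate in WT, where the next lowest was -3.03 log2 CPM for Sult4a1. This rank covers tabled genes only and is computed from the KO effect on which Echdc2 was selected, so it is no separate result. The lowest estimate in KO was -5.27 log2 CPM, for Gm21451. In KO, 51.2% of genes lay below Echdc2, so that it stood near the middle of the tabled genes. The log2FC was 9.64 (SE 1.51) in males and 9.47 (SE 1.51) in females, with a mean of 9.56 (SE 1.07). These are the values for which Echdc2 was selected, and they carry no test here. Because the WT estimate rests on the small count that the fit adds to each library, the log2FC depends on that added count and is neither a measured fold nor a bound on one.

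Echdc2 did not differ detectably between the sexes, at limited precision. The KO effect in females minus that in males was -0.17 (SE 2.14, adjusted p = 0.993), with a 95% interval from -4.76 to 4.41, which leaves room for large differences in either direction. With the sex table added, which comes from another fit, the levels of WT were estimated at 0.0157 CPM (males) and 0.0234 CPM (females), and those of KO at 12.5 CPM (males) and 16.6 CPM (females). Both KO levels lay far above both WT levels, but the order of the sexes within a genotype cannot be read from these estimates. The difference of female minus male was 0.49 (SE 2.52, adjusted p = 0.974). That SE exceeded the 1.51 of the KO effect in males, and whether the sex fit held genotype is not known. Without genotype, its SE would include the gap between WT and KO. This test may therefore say little about sex within a genotype. The SE of the mean effect of Echdc2 was 8.11 times the median SE of all genes, and 61 genes, Echdc2 included, had an SE as large.

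**Figure D1:**
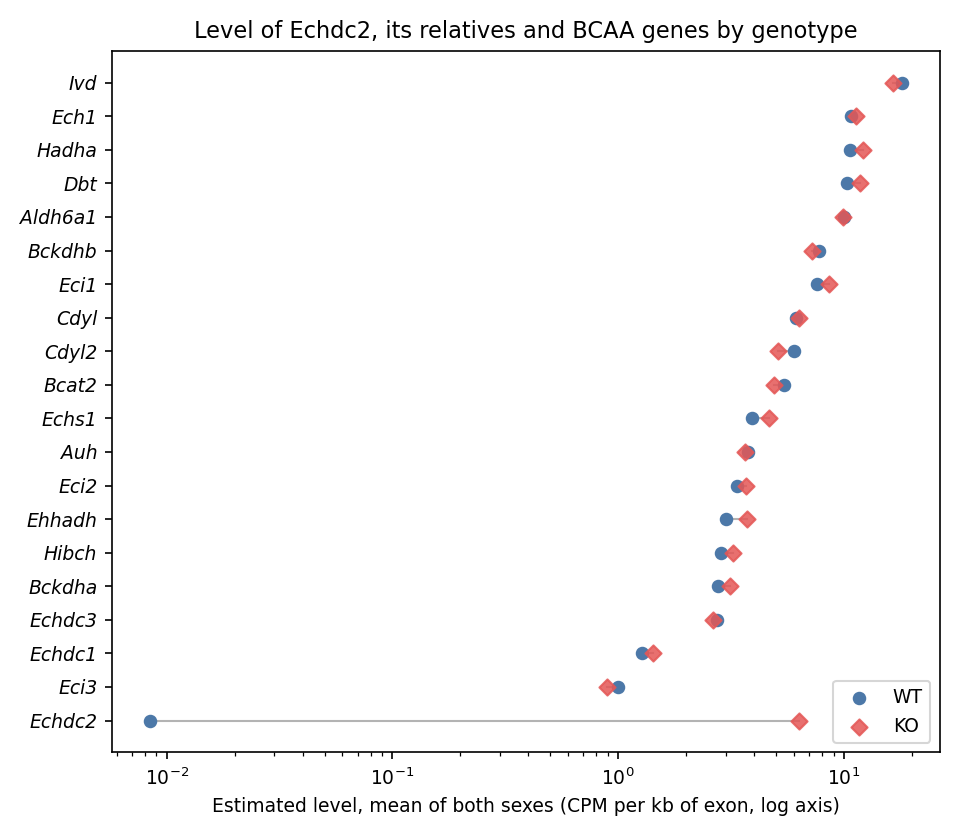
Estimated level in WT (circles) and KO (diamonds), mean of both sexes, in CPM per kb of exon on a log axis, for the 10 members and the other crotonase-fold genes. Echdc2 moves from 0.00839 to 6.31 CPM per kb, while the 2 symbols of every other gene lie close together.

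Per kb of exon, Echdc2 went from a level far below that of each other member to one within their range. The other 9 members lay between 1.27 and 18.1 CPM per kb in WT. In KO, Echdc2 was at 6.31 CPM per kb, with 4 members above it (Bckdhb, Dbt, Ivd and Aldh6a1) and 5 below it. Its nearest relatives by name were lower, with Echdc1 at 1.42 and Echdc3 at 2.63 CPM per kb in KO.

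The relatives of Echdc2 showed no change of that kind. Echdc1, which encodes ethylmalonyl-CoA decarboxylase, an enzyme that removes a side product of fatty acid synthesis, had an estimated level of 5.24 CPM in WT and 5.87 CPM in KO. Its log2FC was 0.23 (SE 0.19) in males and 0.10 (SE 0.19) in females, with a mean of 0.16 (SE 0.13, adjusted p = 0.431). Echdc3 encodes another mitochondrial protein of the fold, with a level of 7.35 CPM in WT and 7.05 CPM in KO. Its mean log2FC was -0.06 (SE 0.12, adjusted p = 0.770), a mean of opposite signs: 0.34 (SE 0.17, adjusted p = 0.243) in males and -0.46 (SE 0.18, adjusted p = 0.218) in females. The difference between these effects was -0.81 (SE 0.24), which had an unadjusted p of 0.00513 and an adjusted p of 0.188, so it was not called. By the estimates that use the sex table, Echdc3 stood at 6.30 CPM in WT males against 7.99 CPM in KO males, and at 8.57 CPM in WT females against 6.23 CPM in KO females.

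In the crotonase-fold list, all 14 genes were tabled, and of the 13 other than Echdc2 none was called in the mean KO effect of both sexes, for which 9.07% of all genes were called. At an unadjusted p under 0.05, 3 of the 13 passed, beside 4422 of all 15838 genes. Their largest mean log2FC was 0.30, for Ehhadh, the peroxisomal bifunctional enzyme (SE 0.12, adjusted p = 0.111). Next came Echs1, the short-chain enoyl-CoA hydratase of mitochondria, with 0.25 (SE 0.09, adjusted p = 0.101), and Hadha, a subunit of the trifunctional protein, with 0.19 (SE 0.08, adjusted p = 0.125). The 3 were named after their values were seen. The median of the 13 genes was 0.13, against -0.01 for all genes.

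The first committed steps of BCAA breakdown were measured in the members Bcat2, Bckdha, Bckdhb and Dbt. Bcat2, the mitochondrial aminotransferase, had a level of 21.1 CPM in WT and 19.2 CPM in KO, with a mean log2FC of -0.14 (SE 0.08, adjusted p = 0.247). Bckdha and Bckdhb encode the α and β subunits of the decarboxylase of the BCKDH complex, and Dbt its transacylase core. Bckdha was at 5.27 CPM in WT and 5.96 CPM in KO, with a log2FC of -0.09 (SE 0.22) in males and 0.45 (SE 0.25) in females. Bckdhb was at 14.0 CPM in WT and 13.0 CPM in KO, with a log2FC of -0.29 (SE 0.19) in males and 0.08 (SE 0.20) in females. Dbt was at 34.4 CPM in WT and 39.3 CPM in KO, with a log2FC of 0.07 (SE 0.19) in males and 0.31 (SE 0.18) in females. None of the 4 was called in males (5.47% of all genes called), in females (1.42%), in their mean (9.07%) or in the difference between the sexes (0.543%).

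The members of the separate arms, Ivd, Hibch and Aldh6a1, were not called in any contrast either. The contrasts called from 0.0316% (sex) to 9.07% (mean of both sexes) of all genes, so most genes were not called. Ivd, isovaleryl-CoA dehydrogenase of the leucine arm and the most abundant member, was at 99.7 CPM in WT and 90.6 CPM in KO. Its log2FC was -0.29 (SE 0.09, adjusted p = 0.0752) in males and 0.01 (SE 0.09, adjusted p = 0.967) in females, and the difference of 0.30 (SE 0.12) had an unadjusted p of 0.0326 and an adjusted p of 0.418. Ivd and Echdc3 are the 2 members on the chromosome of Slc4a11, with lowest annotated positions 11.8 and 124 Mb from that of Slc4a11. Hibch, 3-hydroxyisobutyryl-CoA hydrolase, a crotonase-fold enzyme of the valine arm, was at 17.2 CPM in WT and 19.6 CPM in KO. Its log2FC was -0.03 (SE 0.14) in males and 0.40 (SE 0.15, adjusted p = 0.199) in females. Aldh6a1, methylmalonate-semialdehyde dehydrogenase, the last enzyme of the valine arm, was at 58.0 CPM in WT and 57.1 CPM in KO, with a mean log2FC of -0.02 (SE 0.10).

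Across the 9 members other than Echdc2, 0 were called in males, where 5.47% of all genes were called. The count was also 0 in females (1.42% of all genes), in the mean of both sexes (9.07%), in the difference between the sexes (0.543%) and for sex itself (0.0316%). At an unadjusted p under 0.05, the numbers were 1, 2, 1, 2 and 0. Among all 15838 genes, they were 3471, 2520, 4422, 1608 and 592 in the same order. The 95% interval of the mean log2FC lay between -1 and 1 for all 9, with the lowest bound at -0.40 for Bckdhb and the highest at 0.53 for Bckdha. A doubling or halving in KO thus lies outside these intervals, whereas changes inside the bounds do not.

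**Figure D2:**
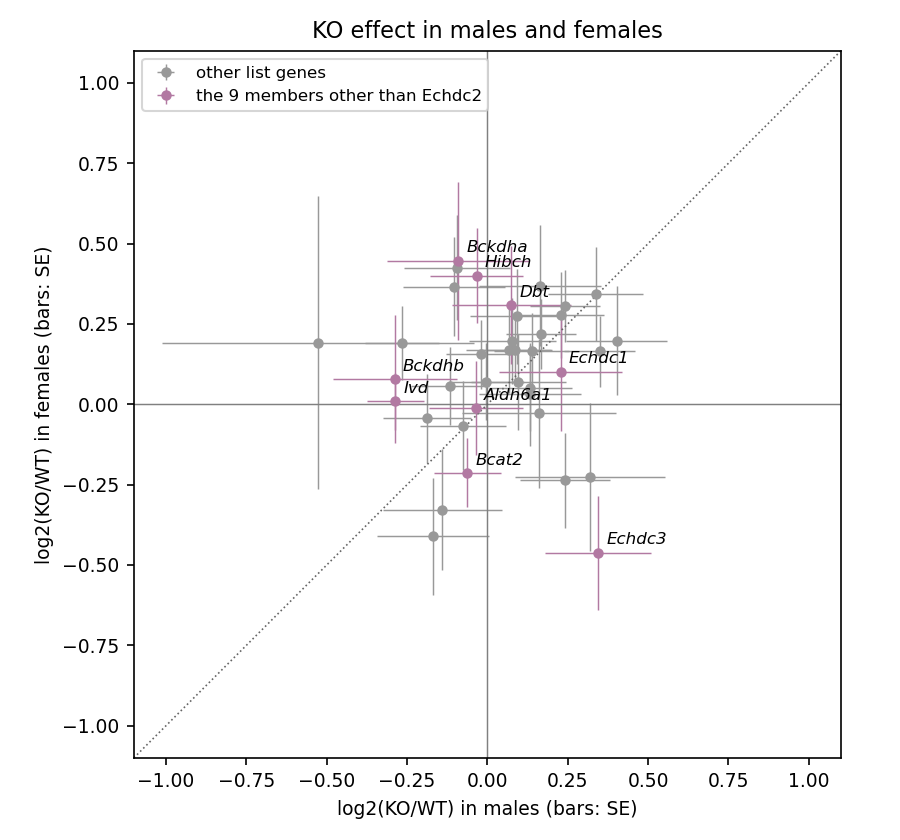
log2FC of KO against WT in males (x axis) and in females (y axis), with SE bars, for the 9 members other than Echdc2 and the other genes of the BCAA and crotonase-fold lists; the dotted line marks equal effects. Echdc2, at 9.64 and 9.47, lies outside the axes, and Echdc3 is the member farthest from the line.

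The wider pathway was described with 29 BCAA breakdown genes, of which 28 were tabled and Bcat1, the cytosolic aminotransferase, was not. In the mean of both sexes 1 of the 28 genes was called, or 3.57%, beside 9.07% of all genes. This gene was Acad8, isobutyryl-CoA dehydrogenase of the valine arm, with a level of 21.7 CPM in WT and 26.3 CPM in KO. Its log2FC was 0.24 (SE 0.11) in males and 0.31 (SE 0.11) in females, and the mean rose by 0.27 (SE 0.08, adjusted p = 0.0447). Just outside the threshold lay Slc25a44, the mitochondrial BCAA carrier, with 0.26 (SE 0.08, adjusted p = 0.0547), and Pccb, the β subunit of propionyl-CoA carboxylase, with 0.34 (SE 0.10, adjusted p = 0.0565), both named after their values were seen. None of the 28 genes was called in males (5.47% of all genes called), in females (1.42%), in the difference between the sexes (0.543%) or for sex (0.0316%). At such shares, counts of 0 among 28 genes do not set the BCAA genes apart. In the same order, 5, 4, 3 and 0 of them had an unadjusted p under 0.05. Among all 15838 genes, 3471, 2520, 1608 and 592 did.

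By direction, 19 of the 28 genes had a mean log2FC above 0 and 9 below it, and the median was 0.09, beside -0.01 for all genes. In both sexes 13 genes were higher in KO and 5 lower, and 10 had opposite signs, of which 7 were lower in males and higher in females. The lowest mean log2FC was -0.29 and the highest 0.34. The 95% interval lay between -1 and 1 for all 28 genes, and between -0.5 and 0.5 for 24 of them. By steps, the 4 genes of the BCKDH complex had a median of 0.16 and its 3 control genes, Bckdk, Ppm1k and Klf15, one of 0.09. The medians were -0.04 for the 5 genes of the leucine arm, 0.20 for the 4 of the isoleucine arm, 0.13 for the 4 of the valine arm and 0.03 for the 6 of the propionyl-CoA arm. In the mean of both sexes, all 4 genes of the isoleucine arm lay above 0 and 4 of 5 of the leucine arm below it. In females, all 4 of the isoleucine arm and 4 of 5 of the leucine arm lay above 0. None of the 9 genes of these arms was called in the mean, beside 9.07% of all genes.

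**Figure D3:**
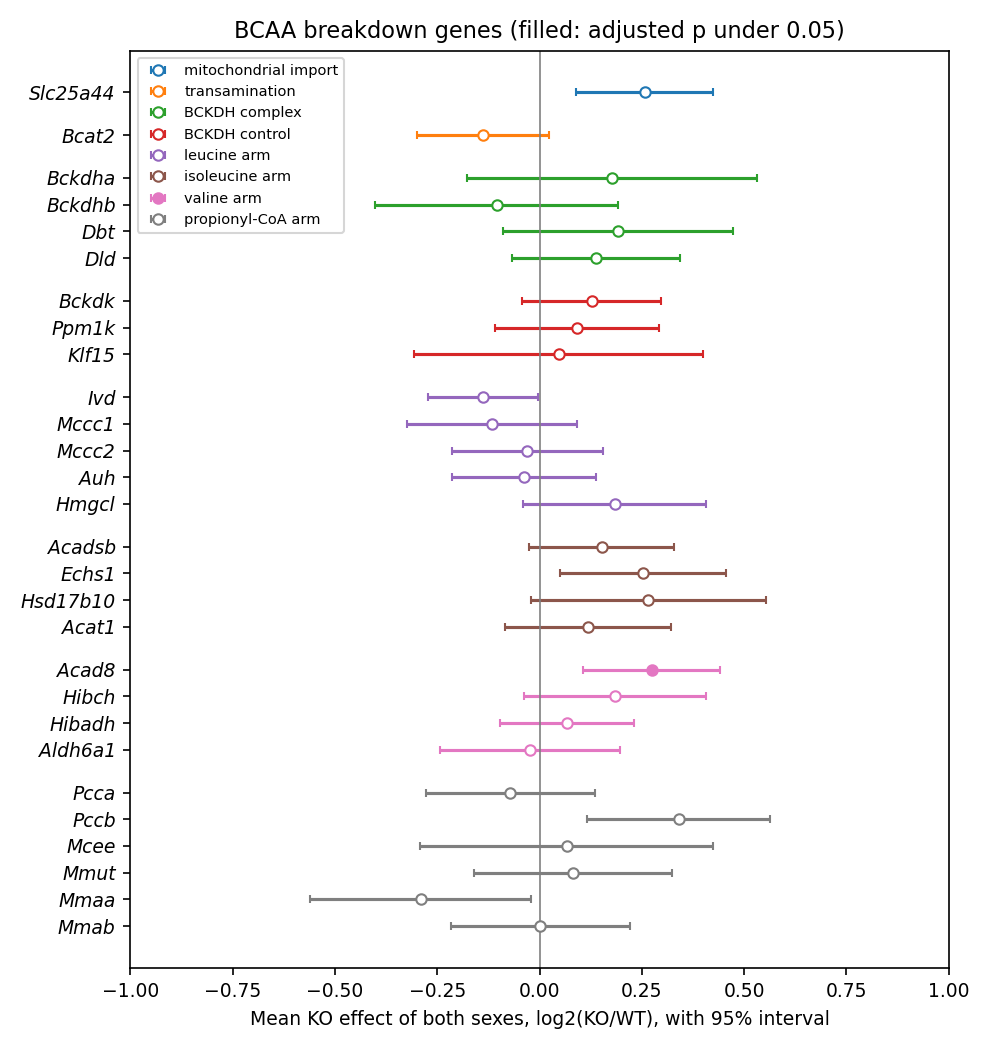
Mean log2FC of both sexes with its 95% interval for the 28 BCAA breakdown genes, grouped by step; filled circles mark an adjusted p under 0.05. Acad8, at 0.27, is the filled one, and the intervals of all 28 genes lie between -1 and 1.

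The tabled genes beside Echdc2 did not share its change. Zyg11a, the next annotated gene past its end, was not among the tabled genes and has no value here. The 10 nearest tabled genes on each side reach from 912 kb before Echdc2 to 472 kb after it. Distances run between the lowest annotated positions of the genes, whatever their strand. Of these 20 genes, 2 were called in the mean of both sexes, beside 9.07% of all genes. Podn, which encodes a leucine-rich proteoglycan, lies 151 kb before Echdc2 by this measure. It fell from 3.03 to 0.578 CPM, with a mean log2FC of -2.39 (SE 0.63, adjusted p = 0.0339). Zfyve9, which encodes an adaptor of TGF-β receptor signalling, lies 472 kb after Echdc2 by the same measure. It rose from 54.2 to 71.3 CPM, with a mean log2FC of 0.40 (SE 0.09, adjusted p = 0.0171) and 0.56 (SE 0.13, adjusted p = 0.0452) in females. The genes directly adjoining Echdc2 in the tables were Scp2, at 0.23 (SE 0.12, adjusted p = 0.248), and Zyg11b, at 0.24 (SE 0.09, adjusted p = 0.115). Both were named after their values were seen. The median of the 20 genes was 0.08.

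**Figure D4:**
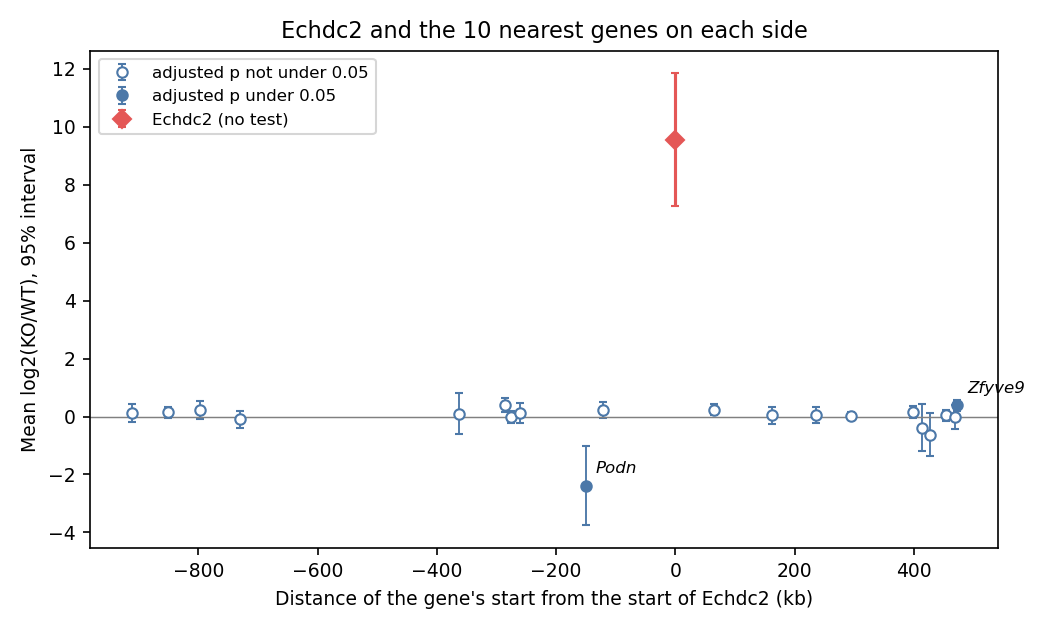
Mean log2FC of both sexes with its 95% interval for Echdc2 (diamond) and its 20 nearest tabled genes (circles). Filled circles mark an adjusted p under 0.05. The x axis gives the distance of each gene's lowest annotated position from that of Echdc2, in kb. Echdc2 stands at 9.56, Podn at -2.39 and the other 19 genes lie between -0.62 and 0.40.

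No other gene came close to the pair of KO effects of Echdc2. As Echdc2 was selected on these effects, its place apart follows from that choice and is a description with no test. The distances also depend on its own log2FC, and so on the count that the fit adds. Likeness was measured as the Euclidean distance between the pairs of log2FC in males and in females, over the 2 sexes. Among the 5 nearest genes were H4c17 at a distance of 9.30, Sprn at 9.36, Sult4a1 at 9.43 and Dgki at 10.4. Sprn, which encodes the prion-like protein shadoo, had a log2FC of 2.98 (SE 0.63) in males and 2.89 (SE 0.72) in females and went from 0.276 to 2.11 CPM. H4c17, a histone H4 gene, Sult4a1, a brain sulfotransferase, and Dgki, a diacylglycerol kinase, lay between 3.15 and 4.86 for males and between 1.30 and 2.13 for females. The WT estimates of the 4 were low as well, from 0.123 CPM (Sult4a1) to 0.288 CPM (H4c17). Echdc2 was the 1 gene of 15838 with a mean log2FC above 4, and the next was H4c17 with 3.18.

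**Figure D5:**
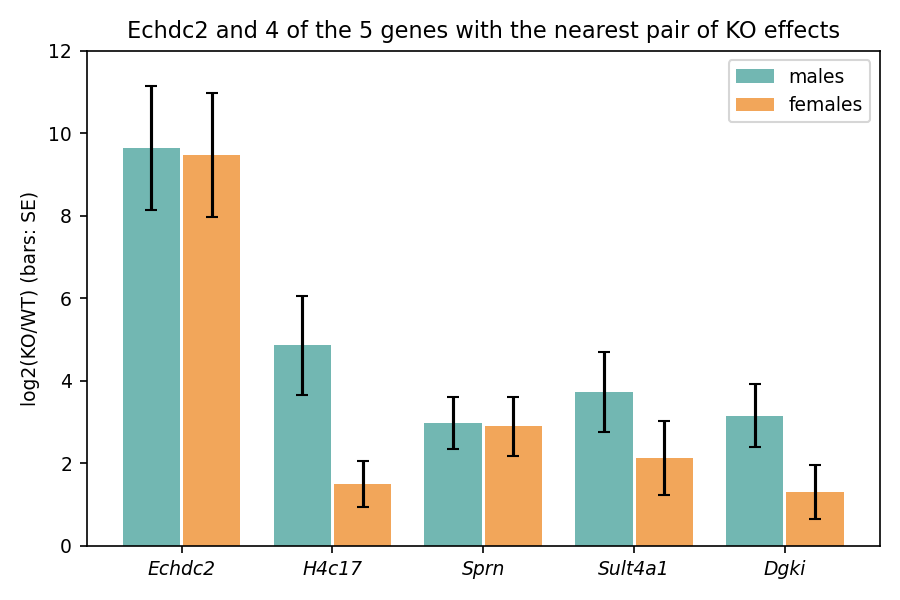
log2FC of KO against WT in males and in females, with SE bars, for Echdc2 and 4 of the 5 genes whose pair of effects was nearest to it. The bars of Echdc2 stand at 9.64 and 9.47, and those of the 4 others between 1.30 and 4.86.

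Markers of other cell types moved with genotype in the same libraries. All 6 stromal keratocyte markers fell in the mean of both sexes, with log2FC from -1.21 to -0.37. All 6 were called, beside 9.07% of all genes in that contrast. Their summed level went from 16203 CPM in WT to 9951 CPM in KO. Podn, the neighbour that fell, moved in the same direction as these. All 5 pigment cell markers had a mean log2FC below 0, from -2.67 to -1.30, and their sum went from 38.9 to 9.07 CPM. Of these markers, Tyr and Dct were called, beside the same share of all genes. All 6 epithelial markers had a mean log2FC below 0, and their sum went from 1479 to 877 CPM. Most of this sum was Aldh3a1, at 1372 CPM in WT and 827 CPM in KO. Only Aldh3a1 was called (-0.73, SE 0.11, adjusted p = 0.00172), beside 9.07% of all genes. The SE of the other epithelial markers ran from 0.77 to 1.39, so the sum says little about them. Krt12, the defining keratin, was at 10.3 CPM in WT and 3.57 CPM in KO and was not called. The sums went from 19.8 to 7.57 CPM for 4 lens markers, from 6.59 to 4.06 CPM for 3 of 4 nerve markers, from 279.5 to 239 CPM for 3 of 6 muscle markers and from 24.0 to 29.8 CPM for 4 of 5 leukocyte markers, with no gene called. Acta1, Ckm, Des, Cd3e and Tubb3 were not in the tables. The 4 leukocyte markers had a log2FC below 0 in males and above 0 in females, with differences between the sexes from 1.18 to 2.43. Of the 28 BCAA genes, 7 had the same signs and 3 the reverse. The differences of the 28 lay between -0.55 and 0.54. The sum over the 9 endothelial markers other than Slc4a11 went from 22368 CPM in WT to 24389 CPM in KO. Most of this rise lay in Col8a2 (6638 to 7593 CPM) and Aqp1 (4780.5 to 5829 CPM). Of the 9, 6 were higher, Slc4a4, Col8a1 and Alcam were lower, and none was called (median log2FC 0.08). With Slc4a11 included, the sum went from 26162 to 25129.5 CPM. The part of these shifts in the values of Echdc2, Podn and the BCAA genes was not tested. In bulk RNA, fewer cells of a type and less RNA per cell cannot be told apart.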

How the data were processed

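Per the labels and methods, the authors made stranded total RNA libraries (SMARTer Pico kit, paired-end reads) and aligned the reads with HISAT2 to GRCm38/mm10. They scaled gene counts to CPM by the TMM method and used limma with voom, in a factorial fit of genotype and sex with their interaction. Versions and the counter are not given in the sources used here. The authors deposited 3 tables of limma results, each with 15838 genes, for genotype, sex and interaction. The sex table comes from a fit other than that of genotype and interaction, and whether it held genotype is not stated. The log2 values deposited by the authors are the fold change of a term and the mean CPM over the libraries, computed after TMM scaling. The moderated t deposited by the authors is a score computed by limma. The p-value and adjusted p-value columns deposited by the authors were computed by limma from that t and the Benjamini-Hochberg method. These columns are the authors' own comparisons and the only values in the files. They were used as the measurements, since nothing per library could be refitted. Depth is unknown, and precision was taken from the SE, which is log2FC divided by t.

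As the files do not name the reference level, the coding was worked out from the ratio of interaction to genotype SE (median 1.42) and from the signs of 4 Y-linked genes in the sex table, all negative for female minus male. By this coding the genotype table holds the KO effect of males, and the interaction table the female minus the male effect. The effect in females is their sum, and its squared SE the difference of the squared SE. The mean effect is genotype plus 0.5 times the interaction, with an SE of 0.5 times that of the interaction. The total degrees of freedom, recovered from t and p, were 13.8, and 14.6 for sex, which comes from another fit. The p-values are from limma's moderated t (two-sided) with Benjamini-Hochberg adjustment over all genes (scipy 1.17.1), and intervals are 95%. Levels are the mean log2 CPM minus (WT) or plus (KO) 0.5 times the mean effect, without an error. On data simulated for KO minus WT in females, with 200 of 15838 genes changed by 1.5, the derivation recovered 192 and called 5 unchanged genes. Positions, exon lengths and neighbours come from GENCODE M21 (15824 of 15838 genes matched) and upstream sequences from RefSeq (GRCm38.p6).

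The members and gene lists were chosen with earlier results of these data known. Named genes are Slc4a11, the 10 members, genes of the BCAA and crotonase-fold lists called in any contrast, neighbours of Echdc2 called in a KO contrast, and the 5 genes with the nearest pair of KO effects, of which 1 is not reported here; others are marked as named after their values were seen. Alternatives were the Benjamini-Yekutieli and Holm adjustments, 1 adjustment over 3 contrasts, a mean of at least 1 or 10 CPM, an added threshold of 1 on |log2FC|, and 5 neighbours on each side.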

Additional observations from a re-analysis of the deposited data

How the results depend on the processing

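The BCAA genes called in the mean of both sexes, 1 in the report, were 0 with the Benjamini-Yekutieli or the Holm adjustment and with an added threshold of 1 on |log2FC|, and 3 among genes with a mean of at least 10 CPM, where fewer genes were adjusted for. The genes called beside Echdc2, 2 in the report, were 0 with either of those adjustments, 1 with the added threshold, 1 with 5 neighbours on each side and 3 once genes under 1 CPM were dropped. The counts for males, females, the difference between the sexes, sex and the crotonase fold were 0 under every alternative run for them. No value changed direction. Acad8 had an adjusted p of 0.0447 in the report and 0.458 with Benjamini-Yekutieli, so its call depends on the adjustment. Echdc2 has a mean level of -0.93 log2 CPM and drops out under either CPM minimum, and its log2FC was 9.64 in males alone and 9.47 in females alone.

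No paired analysis was possible because the tables hold no values per library, and for the same reason no library was left out and no search for outlying libraries was made. The depth of the libraries is unknown, and no count or detection limit is given for the WT level of Echdc2.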
